A study of Arabidopsis thaliana with 22 samples.

Results

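Root transcripts of Arabidopsis were compared between 6 h and 0 h after a change of nutrient solution, in plants moved to solution without Fe and in plants moved to solution with Fe, to describe changes that both media had in common. The comparison took 12 of the 22 arrays of the series, namely 6 arrays of 6 h (3 Fe-deficient and 3 Fe-sufficient) and 6 arrays of 0 h (3 Fe-deficient and 3 Fe-sufficient). All plants were wild-type Landsberg erecta, grown hydroponically for 30 days under 10 h of light and 14 h of dark. Their roots were dipped in 0.1 mM EDTA, a metal chelator, and placed in Fe-free solution or in solution with 40 uM Fe-EDTA 1 h after lights on. Each array held the whole roots of about 20 pooled plants from 1 of 3 independent experiments, so that cell types were not separated and fewer cells of a type cannot be told apart from less RNA per cell. The 0 h roots were collected directly after the wash and transfer, at 1 h into the light, and the 6 h roots at 7 h into the light. Time since handling and hour of the day therefore changed together and cannot be told apart in the 6 h and 0 h arrays alone.

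Plant roots answer handling, bending and wounding within minutes through calcium signals. Transcripts of calmodulin-like calcium sensors, zinc finger and WRKY regulators, cell wall proteins and enzymes of the wound hormone jasmonate are well known to accumulate briefly after such stimuli. Many root transcripts also follow the circadian clock, in which morning-phased genes peak near dawn and GIGANTEA (GI) peaks in the afternoon. Fe deficiency switches on the uptake of Fe through the transporter IRT1 and its regulators, which is the response the study was built around.

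At 6 h, more probe sets were called lower than higher relative to 0 h, and most of those called had a mean change past 1.5-fold in each medium. The named lower genes included the zinc finger gene STZ, the calcium sensor gene CML39, the glutaredoxin gene GRX480 and the expansin-like genes EXLA3 and EXLA1, beside many known here by locus alone. Among 22746 probe sets tested with limma, 111 were lower at 6 h (0.488%) and 18 higher (0.0791%) at an adjusted p under 0.05. Of these, 107 (0.47% of all probe sets) were more than 1.5-fold lower in each medium and 15 (0.0659%) more than 1.5-fold higher in each medium. These 122 probe sets are called common to both media below, although no p-value was asked of either medium alone. Their median log2 change was -1.33 for the lower group and 1.11 for the higher group, against 0.03 for all probe sets. The lower group was mostly of ample signal, with 80 of 107 above the median probe set, whereas 10 of the 15 higher ones lay below it.

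Each of the 107 lower and 15 higher probe sets changed in the same direction in 6 of 6 pairs of arrays with equal medium and replicate number. Over all probe sets, 3.86% were lower and 4.33% higher in 6 of 6 pairs. The 6 h arrays and the 0 h arrays did not overlap for 96 of the lower and 10 of the higher probe sets, against 1.06% of all probe sets below and 0.317% above. These counts come from the arrays that chose the probe sets, so they describe them and add no support to the calls. A gene could be named for 52 of the 107 lower and 10 of the 15 higher ones.

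**Figure D1:**
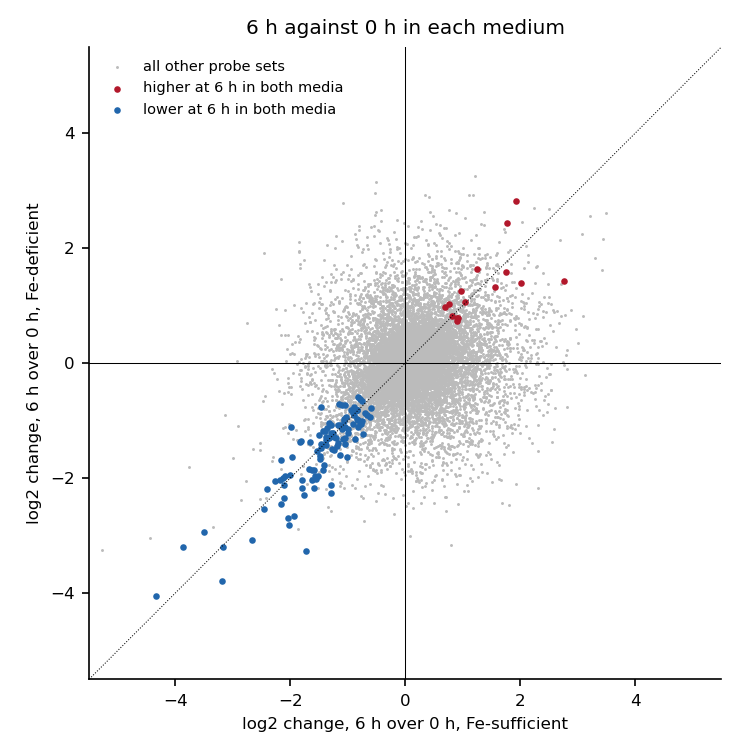
Log2 change at 6 h over 0 h in Fe-deficient roots (y axis) against that in Fe-sufficient roots (x axis), 1 point per probe set, with the 107 lower and 15 higher probe sets common to both media in colour and a dotted line of equal change. The coloured points run along the dotted line because being past 1.5-fold in each medium chose them, and the lower ones reach further from 0.

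The largest decrease of a named gene was that of At4g29780. Its intensity was 221, 177.3 and 273 in Fe-deficient roots and 148.8, 119.6 and 123.4 in Fe-sufficient roots at 6 h, against 3563.7, 1997.1 and 700.1 in Fe-deficient roots and 3603.4, 751.6 and 1213 in Fe-sufficient roots at 0 h. Every 6 h array lay below every 0 h array, and the first experiment had the highest 0 h value in both media. The log2 change was -3.23 ± 0.38 (SE), a 9.37-fold difference with an adjusted p of 0.0133, and it was -2.95 in Fe-deficient and -3.51 in Fe-sufficient roots.

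A run of 3 neighbouring genes was lower at 6 h. At4g27652 had 196.1, 206.9 and 236.1 in Fe-deficient roots and 242.9, 349.2 and 271.1 in Fe-sufficient roots at 6 h, against 1934.5, 1381.5 and 973.8 in Fe-deficient roots and 1957.2, 817.2 and 1028 in Fe-sufficient roots at 0 h. The log2 change was -2.37 ± 0.25, with an adjusted p of 0.00959. At4g27654, the next protein-coding gene, ranged from 40.8 to 96.3 at 6 h, against 298.5 to 1123.9 at 0 h, with a log2 change of -3.18. At4g27657, the one after it, was dim at 1.5 to 16.7 at 6 h, against 24.6 to 108.2 at 0 h, and its fitted log2 change of -2.88 is no exact fold, since values this low were not told from background. At4g27654 and At4g27657 were chosen after their values were seen, as were EXLA1, PTI1-4, At3g50280, the genes below the median probe set other than CML39, and list members named below that were not called, apart from the clock genes and ORG1.

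Of 60 common genes that could be placed in the annotation, 9 had another common gene within 5 protein-coding genes, namely that run and 3 pairs, and the number to be found among other genes was not computed. At5g52760 and its neighbour At5g52750 were such a pair. The intensity of At5g52760 ranged from 110.5 to 156.8 at 6 h with a median of 131, against 287.4 to 1076.1 with a median of 627 at 0 h, a log2 change of -2.23 ± 0.26. For At5g52750 the range was 313 to 634 at 6 h with a median of 390, against 702.1 to 1390.5 with a median of 1174.8 at 0 h, a log2 change of -1.40 ± 0.18. Neither gene had overlapping arrays. Probe sets of related genes can share signal, and this was not examined here.

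The expansin-like genes EXLA3 and EXLA1, which code for wall proteins related to the expansins that loosen cell walls, were another pair. EXLA3 had intensities of 65 to 124 at 6 h with a median of 86.3, against 170.6 to 1261.8 at 0 h with a median of 313. EXLA1 had 310.5 to 398.7 at 6 h with a median of 322, against 510.4 to 1268.6 at 0 h with a median of 691. The arrays of the times did not overlap for either gene, and the log2 changes were -2.12 ± 0.30 and -1.12 ± 0.17 with adjusted p of 0.0259 and 0.0321. For EXLA1 the decrease was -0.77 in Fe-deficient and -1.47 in Fe-sufficient roots, a difference of 0.70 ± 0.26 with an unadjusted p of 0.0275. A true expansin, EXPB1, went the other way, with 162.5 to 324.3 at 6 h, against 78.7 to 159.8 at 0 h, and a log2 change of 0.83 ± 0.12 (adjusted p = 0.0275).

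KICP-02 and At3g50280, which lie 4 genes apart, were the remaining pair. KICP-02 had a median of 114 at 6 h, against 192 at 0 h (log2 change -0.71 ± 0.11), and At3g50280 had 151 at 6 h, against 302 at 0 h (log2 change -0.98 ± 0.15), without overlap in either gene.

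STZ and GRX480, both linked to the control of transcription, were called lower. STZ (also ZAT10), a zinc finger repressor of transcription, had 1070.4, 883.5 and 1406.6 in Fe-deficient and 1042.7, 1190.6 and 1446.9 in Fe-sufficient roots at 6 h, against 4527.5, 5580.1 and 3165.6 in Fe-deficient and 4907.5, 2317.6 and 3730.8 in Fe-sufficient roots at 0 h. The highest 6 h array was below the lowest 0 h array, and the log2 change was -1.74 ± 0.23 (3.35-fold, adjusted p = 0.0229). GRX480, a glutaredoxin that binds TGA transcription factors, ranged from 111.8 to 219.5 at 6 h with a median of 159, against 342.4 to 794.8 with a median of 608 at 0 h. Its log2 change was -1.84 ± 0.23 (3.57-fold, adjusted p = 0.0181).

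CML39, a calmodulin-like calcium sensor, was dimmer than the median probe set. Its intensity ranged from 26.6 to 61.5 at 6 h with a median of 52.1, against 150.6 to 300.9 at 0 h with a median of 182. The arrays were fully apart, with a log2 change of -2.04 ± 0.22 (4.1-fold, adjusted p = 0.0101). The kinase PTI1-4 had 426 to 729.7 at 6 h, against 823.1 to 1229.5 at 0 h (log2 change -0.92). RING1, a ubiquitin ligase gene, had 96.2 to 180.9 at 6 h, against 148.4 to 366.1 at 0 h (log2 change -0.88), with overlapping arrays.

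BGLU32, a beta-glucosidase, ranged from 201.4 to 355.1 at 6 h with a median of 261, against 433.9 to 1148.2 at 0 h with a median of 625 (log2 change -1.33 ± 0.21, adjusted p = 0.0387). AR781 had a median of 1048.8 at 6 h, against 2289.1 at 0 h, without overlap, and a log2 change of -1.36 ± 0.22. The other bright genes with the largest decreases were known here by locus alone. At5g11070, At2g27080, At2g36650, At1g66180, At1g61890, At1g14480 and At3g25600 had log2 changes from -2.06 to -1.29 and adjusted p from 0.0109 to 0.0466. The 6 h arrays were below all 0 h arrays for each of these except At3g25600, which had 585.1 to 1564.3 at 6 h, against 1484.8 to 4158.8 at 0 h.

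Smaller but more even decreases were seen for At1g19380 and At4g36500, which had some of the smallest p-values. At1g19380 ranged from 1131.5 to 1718.4 at 6 h, against 2511.4 to 3786.3 at 0 h, with a log2 change of -1.19 ± 0.13 and an adjusted p of 0.00959. At4g36500 ranged from 1080.2 to 1545.8 at 6 h, against 2297.5 to 3020.1 at 0 h, with a log2 change of -1.08 ± 0.12 and an adjusted p of 0.0109. In both genes the 6 h and the 0 h arrays were closely grouped, but a choice by smallest p favours such genes. Their 1 h arrays, not used in the choice, ranged more widely, from 1489.7 to 4425.1 and from 2551.2 to 6276.6.

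**Figure D2:**
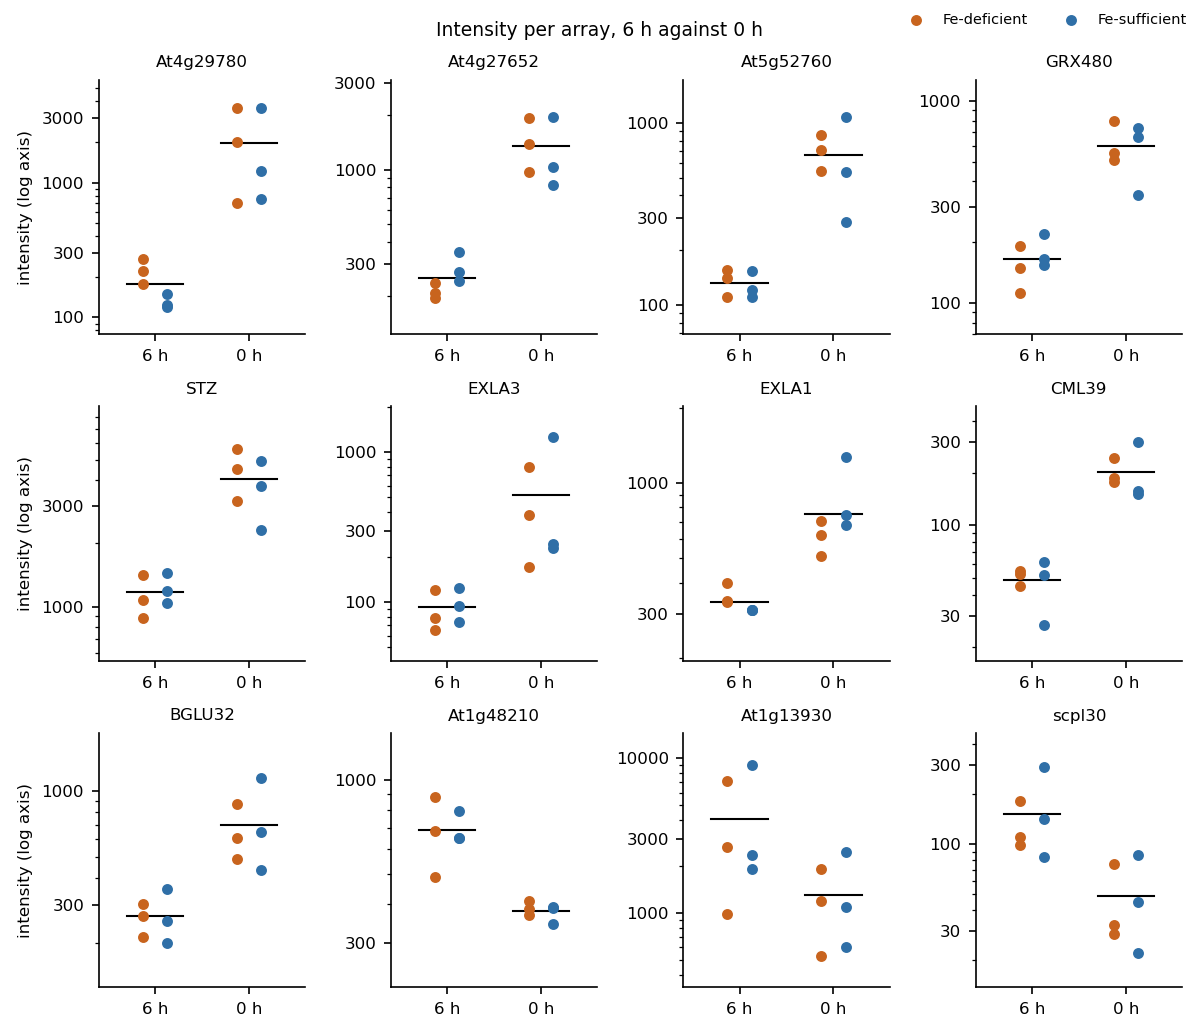
Intensity per array on a log axis at 6 h and 0 h for 9 genes lower and 3 genes higher at 6 h, with Fe-deficient and Fe-sufficient arrays as separate colours and a bar at the mean of the 6 arrays. The first 9 genes have no 6 h array as high as any 0 h array, whereas At1g13930 and scpl30 overlap between times and At1g48210 does not.

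Named genes higher at 6 h were fewer. At1g48210 had 882.2, 682.5 and 486.9 in Fe-deficient roots and 794.5, 648.7 and 652.3 in Fe-sufficient roots at 6 h, against 367.9, 385.6 and 406.7 in Fe-deficient roots and 344.9, 387.9 and 389.1 in Fe-sufficient roots at 0 h. Its 0 h arrays agreed closely and all 6 h arrays lay above them, with a log2 change of 0.84 ± 0.14 (1.79-fold, adjusted p = 0.0437). At1g13930 differed strongly between experiments, with 7114.5, 2656.8 and 991.2 in Fe-deficient and 9121.8, 1929.1 and 2385.7 in Fe-sufficient roots at 6 h, against 1914.9, 1194.3 and 528.3 in Fe-deficient and 2496.7, 1091.4 and 606.6 in Fe-sufficient roots at 0 h. The times overlapped, yet 6 of 6 pairs were higher at 6 h, and the log2 change with the experiment as a factor was 1.44 ± 0.23 (2.71-fold, adjusted p = 0.04).

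The remaining higher genes with a name were dim. scpl30, a serine carboxypeptidase-like gene, had 83.9 to 291.5 at 6 h with a median of 126, against 22 to 86.5 at 0 h with a median of 38.9, a log2 change of 1.66 ± 0.17 and an adjusted p of 0.00959. At1g51810 had 16.4 to 50.9 at 6 h, against 2.7 to 17.9 at 0 h, and a fitted log2 change of 2.37 ± 0.39. For At5g37140 the values were 12.9 to 29.4 at 6 h, against 1.6 to 7.4 at 0 h. The cation/hydrogen exchanger gene chx28 had 3.5 to 5.3 at 6 h, against 1.6 to 3.2 at 0 h. For these 3 genes the log2 scale exaggerates small differences in intensity, no detection calls were used to tell such values from background, and the fitted changes depend on the pseudocount of 1 and are no exact folds.

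The arrays at 1 h and 24 h were not used to choose these genes and are given as a description, beside the 6 h and 0 h arrays that chose them. The 24 h arrays, 2 per medium, were taken 1 h after lights on, the same hour as the 0 h arrays. At4g29780 averaged 465 ± 146 at 1 h (SD, n = 6) and 229 ± 88.1 at 24 h (SD, n = 4), where the means were 177 ± 60.2 at 6 h and 1971.5 ± 1332.6 at 0 h (SD, n = 6 each). At4g27652 averaged 303 ± 105 at 1 h and 287 ± 73.4 at 24 h, beside 250 ± 55.3 at 6 h and 1348.7 ± 498 at 0 h. For both genes the 1 h arrays, from 236 to 641.2 and from 198.4 to 482.7, already lay below all 0 h arrays.

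Other members were still high at 1 h. STZ averaged 2924.4 ± 1054.2 at 1 h and 1278.7 ± 175 at 24 h, beside 1173.4 ± 220 at 6 h and 4038.2 ± 1199.1 at 0 h. At1g19380 averaged 3432.7 ± 1041.2 at 1 h and 1372.5 ± 76.6 at 24 h, beside 1335.7 ± 202 at 6 h and 3048.4 ± 491 at 0 h. At4g36500 averaged 4050.3 ± 1501.6 at 1 h, above its 0 h mean of 2642.7 ± 312, and 1197.1 ± 191 at 24 h, close to its 6 h mean of 1255.3 ± 201. The 24 h arrays of each of these 5 genes were below all of its 0 h arrays. The 0 h arrays helped choose these genes, so lower values at 1 h or 24 h are owed in part to that choice. The share of all probe sets with 24 h arrays below all 0 h arrays was not computed. Not every lower gene was like these. BGLU32 overlapped, with 276.7 to 615.9 at 24 h, against 433.9 to 1148.2 at 0 h. At3g25600 also overlapped, with 711.4 to 1798.1 at 24 h, against 1484.8 to 4158.8 at 0 h. The part of the hour of harvest was not tested.

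At1g48210 did not keep its 6 h level in the same way. It averaged 435 ± 35.8 at 1 h and 470 ± 94.7 at 24 h, beside 691 ± 136 at 6 h and 380 ± 21.3 at 0 h. The dim gene scpl30 averaged 153 ± 69.5 at 1 h and 49 ± 31.7 at 24 h, beside 152 ± 77 at 6 h and 48.6 ± 26.7 at 0 h. Its mean was high at 1 h and 6 h and low at 0 h and 24 h, but single arrays overlapped. They ranged from 54.8 to 243 at 1 h and from 29.4 to 96.2 at 24 h. The ranges were 83.9 to 291.5 at 6 h and 22 to 86.5 at 0 h. A link to the hour of harvest was not tested.

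**Figure D3:**
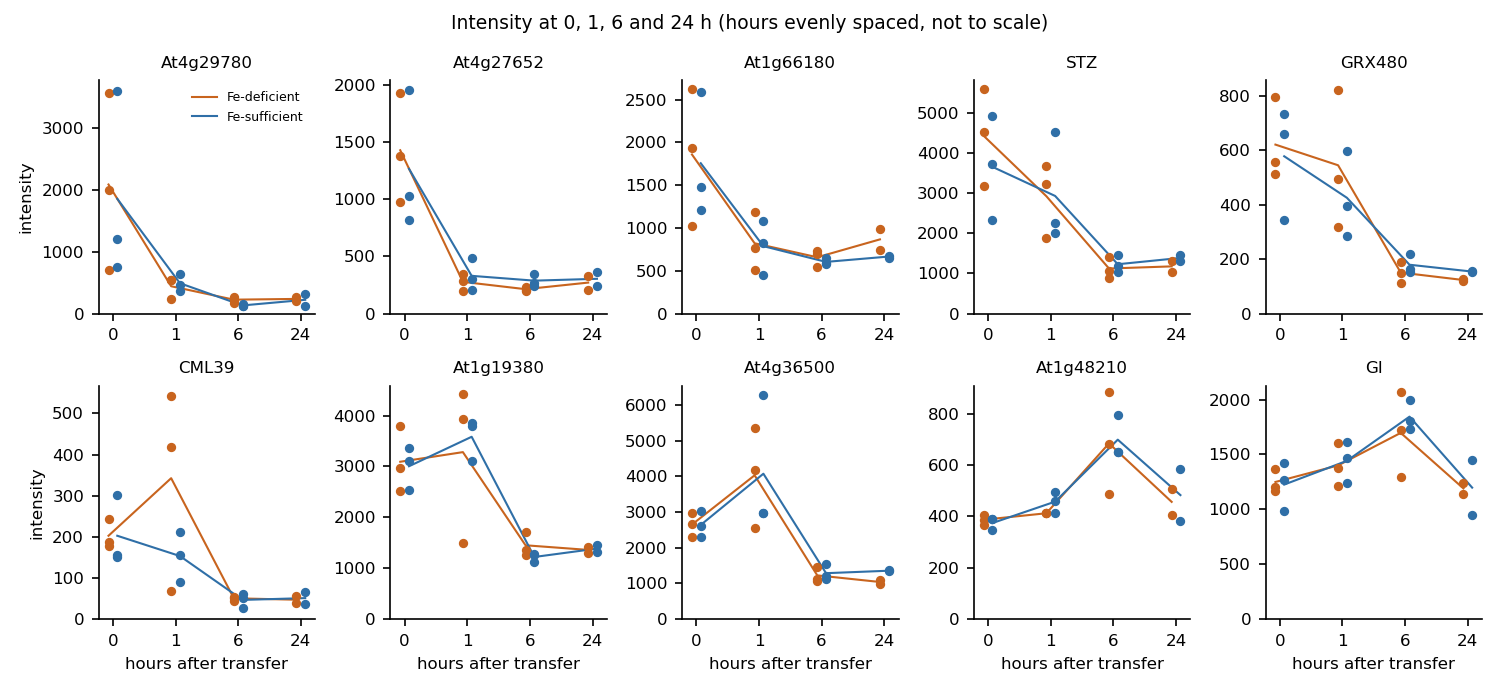
Intensity (linear axis from 0) at 0, 1, 6 and 24 h after transfer for 10 genes, with points for arrays, lines through the means of each medium and hours evenly spaced. At4g29780, At4g27652 and At1g66180 are low from 1 h on, STZ, GRX480, CML39, At1g19380 and At4g36500 only at 6 h and 24 h, and At1g48210 and GI have their highest means at 6 h.

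The difference between media in the change at 6 h was tested for every probe set. None passed an adjusted p under 0.05 (0%), the smallest adjusted p being 0.557, and 943 of 22746 had an unadjusted p under 0.05. Among the 107 lower probe sets common to both media, 2 had an unadjusted p under 0.05 for this difference, and among the 15 higher ones 0 had. Being past 1.5-fold in each medium chose these probe sets and limits the difference, so these low numbers add no support for equal changes. The median size of the difference was 0.23 in log2 for the lower and 0.26 for the higher group, but single values reached 1.54 and 1.34, so that equal changes in both media were not shown for each gene. For At4g29780 the difference was 0.56 ± 0.77 (SE) and for At4g27652 -0.64 ± 0.48, Fe-deficient minus Fe-sufficient.

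Among named genes above the median probe set, those of smallest p for the difference were ORG1, At5g22270 and At5g05250, with adjusted p of 0.944 each. ORG1, one of the listed Fe-deficiency genes, had 1509.3, 1348 and 1162.1 in Fe-deficient and 505, 321.9 and 345.5 in Fe-sufficient roots at 6 h, against 499.5, 486.3 and 323 in Fe-deficient and 348.1, 401.4 and 309 in Fe-sufficient roots at 0 h. The log2 change was 1.64 in Fe-deficient and 0.13 in Fe-sufficient roots, and At5g05250 had 2.06 in Fe-deficient and 0.40 in Fe-sufficient roots. At5g22270 had log2 changes of -0.59 in Fe-deficient and 0.53 in Fe-sufficient roots. No gene of this set met the rule for changes common to both media.

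Gene lists were described by counts. Of 358 genes in 24 lists, 64 had a named probe set on the array, so that 8 lists had 3 or more measured members, 7 had 1 or 2, and 9 had none. The list of touch, wound and early stress genes had 5 measured members of 26. CML39 and STZ were called, and the other 3 were CML37, CML38, both calmodulin-like, and WRKY53, a transcription factor of stress and senescence. The median log2 change was -1.55, against 0.03 for all probe sets, and each of the 5 was lower in 6 of 6 pairs. Over all probe sets 0.488% were called lower and 3.86% were lower in 6 of 6 pairs, and the list was chosen with earlier results known.

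CML37 ranged from 61.7 to 219.6 at 6 h with a median of 97, against 252.1 to 395 with a median of 346 at 0 h, and its log2 change of -1.55 had an adjusted p of 0.0719. CML38 had a median of 148 at 6 h, against 549 at 0 h, with log2 changes of -2.35 in Fe-deficient and -0.73 in Fe-sufficient roots (adjusted p = 0.209). WRKY53 had a median of 981 at 6 h, against 1932.3 at 0 h (log2 change -0.85, adjusted p = 0.138). The arrays of the times overlapped for CML38 and WRKY53 but not for CML37.

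The clock lists were almost unmeasured, with 1 of 14 morning genes and 1 of 13 afternoon and evening genes. GI had 1725, 2071.4 and 1293.9 in Fe-deficient and 1995.3, 1805.9 and 1732.8 in Fe-sufficient roots at 6 h, against 1207.4, 1372 and 1168.8 in Fe-deficient and 982.2, 1426.3 and 1268.6 in Fe-sufficient roots at 0 h. It was higher at 6 h in 6 of 6 pairs, with overlapping arrays, and its log2 change of 0.51 ± 0.12 (1.43-fold) did not pass, with an adjusted p of 0.123. At 24 h GI averaged 1194.3 ± 210 (SD, n = 4), close to its 0 h mean of 1237.5 ± 158. The morning list's member At5g52660 had a median of 205 at 6 h, against 218 at 0 h, and a log2 change of -0.10 ± 0.11. In the list of clock and light outputs, the only member, At1g69570, had log2 changes of 0.39 in Fe-deficient and -1.06 in Fe-sufficient roots, without passing.

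No gene of the Fe lists was called over both media, where 0.488% of all probe sets were called lower and 0.0791% higher. At these shares, 0 calls in lists of this size say little about their members. Of 20 probe sets for Fe acquisition and its regulators, 13 had opposite signs in the media, with median log2 changes of 1.31 in Fe-deficient and -0.13 in Fe-sufficient roots. IRT1, the main root Fe transporter, had 2118.3, 3197.7 and 3445 in Fe-deficient and 1122.3, 277.7 and 698.4 in Fe-sufficient roots at 6 h, against 217.6, 3909.6 and 430.4 in Fe-deficient and 718.3, 3007.7 and 1283.7 in Fe-sufficient roots at 0 h. The arrays of replicate number 2 were already highest in both media at 0 h, and the difference between media in the log2 change was 3.22 ± 1.39 (unadjusted p = 0.0509). The regulator bHLH39 had log2 changes of 2.92 in Fe-deficient and 0.35 in Fe-sufficient roots (adjusted p = 0.278 for the change in both). Of 6 probe sets for Fe storage and vacuolar transport, medians were -0.57 in Fe-deficient and 0.33 in Fe-sufficient roots, and 5 had opposite signs. Opposite signs were common in general, with 9210 of the 22746 probe sets tested.

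Among 4 genes of sulfate uptake and assimilation, with a median of -0.23, the ATP sulfurylase gene APS3 had 1073.9 to 1569.9 at 6 h, against 1581.1 to 3247.9 at 0 h, and a log2 change of -0.79 in 6 of 6 pairs (adjusted p = 0.138). None of the members of the lists for cold and dehydration (4 measured, median 0.44), auxin (7 measured, 0.02) and phenylpropanoids (3 measured, -0.20) was called. PDC2, a pyruvate decarboxylase of fermentation and the only measured hypoxia gene, ranged from 156.7 to 2875.5 at 6 h, against 139.5 to 386.5 at 0 h (log2 change 1.70, adjusted p = 0.203). Sugar supply (2 measured, median 0.11) and cytokinin genes (2 measured, 1.04) had no called member. Over all probe sets 0.488% were called lower and 0.0791% higher, so small lists without a call say little about their members. The lists of nitrogen, phosphate, heat shock, aquaporin, cell cycle, endodermis, xylem, phloem and root cap genes had no named probe set, and their members were not analysed here.

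**Figure D4:**
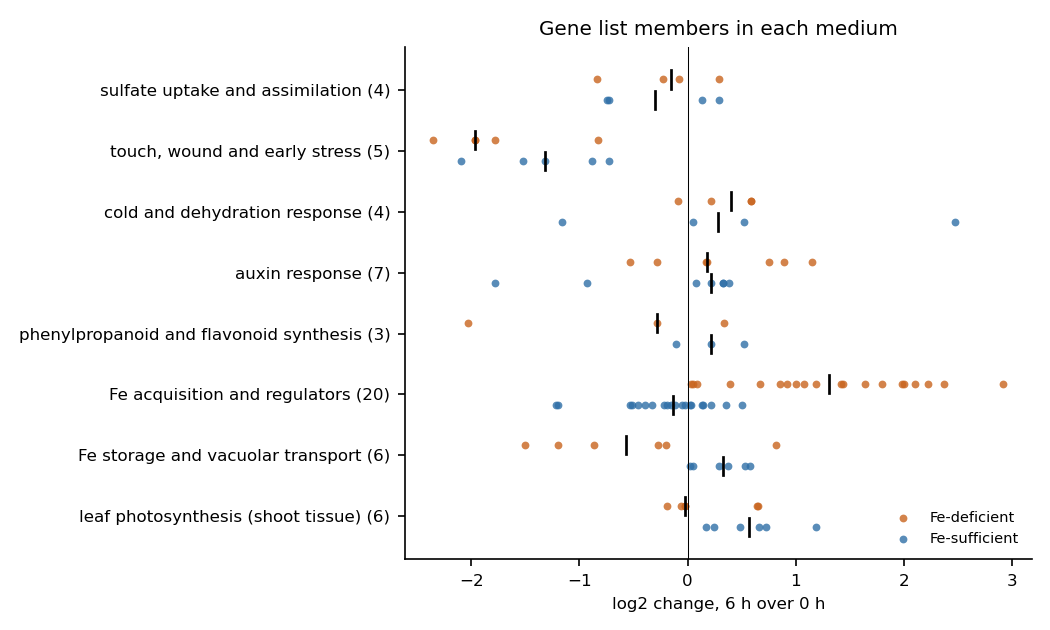
Log2 change at 6 h over 0 h of each measured probe set of the 8 lists with 3 or more of them, in Fe-deficient and Fe-sufficient roots, with a bar at each median and the number of probe sets in brackets. All 5 touch, wound and early stress genes lie below 0 in both media, whereas the 20 Fe acquisition probe sets lie mostly to the right in Fe-deficient and around 0 in Fe-sufficient roots.

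As a check of tissue, the 6 measured genes of leaf photosynthesis all lay below the median probe set. Of these 0 were called, beside 0.488% of all probe sets called lower and 0.0791% higher. Their summed intensity ranged from 298 to 573 at 6 h, against 230 to 578 at 0 h, and their median log2 change was 0.33. One array weighed on the 0 h range. LHCB4.1 had 370.8 in the first Fe-deficient array of 0 h, against 56.8 to 94.6 in the other 0 h arrays. Of 36 plastid-encoded genes of photosynthesis and the NDH complex, 26 lay above the median probe set. The root hair expansins EXPA7 and EXPA18 both lay above the median probe set, with a summed intensity of 384 to 967 at 6 h, against 263 to 765 at 0 h, and log2 changes of 0.62 and 0.28 in 6 of 6 pairs (adjusted p = 0.119 and 0.345). Their part in the results above was not tested.

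A looser rule, with the thresholds of the paper's authors, was also applied, with p under 0.05 before adjustment and a change over 1.5-fold. The authors used it between Fe-deficient and Fe-sufficient roots at each time, and state a probe-level normalisation. The counts here are for 6 h against 0 h on the deposited values, so they cannot be set beside theirs. Over the mean of the media it was met by 628 probe sets lower (2.76%) and 662 higher (2.91%) at 6 h. With 1.5-fold asked of each medium there were 446 lower (1.96%) and 434 higher (1.91%), of which 301 and 208 changed in the same direction in 6 of 6 pairs. Above the median probe set there were 232 lower and 67 higher. Genes that met this criterion but not the adjusted p are given next as values, chosen after they were seen.

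On the lower side they included OPCL1, which activates precursors of jasmonate, with a median of 879 at 6 h, against 1486.8 at 0 h (log2 change -0.85, adjusted p = 0.0601). EXO, a gene of cell expansion, had a median of 1528.2 at 6 h, against 3269.1 at 0 h (log2 change -1.08, adjusted p = 0.0547), and SRC2 had 1617.8 at 6 h, against 4337.9 at 0 h (log2 change -1.22, adjusted p = 0.0635). The ubiquitin ligase gene PUB23 had a median of 1059.2 at 6 h, against 1783.8 at 0 h, and the tetraspanin gene TET8 had 4004.9 at 6 h, against 6341.8 at 0 h. Each of these 5 genes was lower in 6 of 6 pairs without overlap. Over all probe sets 3.86% were lower in 6 of 6 pairs and 1.06% lower without overlap. Of the 446 lower by this criterion in each medium, 301 had 6 of 6 pairs alike and 167 had no overlap, so the 5 are not typical of them. The glucosinolate transporter gene GTR1 had medians of 245 at 6 h, 655 at 0 h and 1278.2 at 1 h.

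On the higher side were PDF2.1 and LCR69, which code for defensins, small cysteine-rich peptides. They were 2 of 12 measured defensin genes, of which 0 were called, beside 0.0791% of all probe sets called higher and 0.488% lower. Of the 12, 4 had positive log2 changes in both media, 2 negative in both and 6 opposite signs. The median was 0.14 and the lowest value -1.16. PDF2.1 had a median of 2361.8 at 6 h, against 299 at 0 h (log2 changes of 1.63 in Fe-deficient and 3.42 in Fe-sufficient roots, adjusted p = 0.0802), and LCR69 had 9984.5 at 6 h, against 4563.2 at 0 h (adjusted p = 0.114). Each was higher in 5 of 6 pairs. The plastid-encoded genes ndhE and psbT had medians of 472 and 396 at 6 h, against 184 and 154 at 0 h, with log2 changes of 1.12 and 1.36 and adjusted p of 0.0656 and 0.17. COR27, a cold- and clock-regulated gene, was dim with a median of 77 at 6 h, against 10.6 at 0 h and 5.9 at 24 h, and a log2 change of 2.80 in 6 of 6 pairs (adjusted p = 0.198).

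Single arrays weighed on the number of calls. The 111 lower and 18 higher calls became 21 and 1 without the first Fe-deficient array of 6 h, and 165 and 65 without the third. Of the 20 named genes called, 2 (CML39 and At1g19380) were called under all 21 alternatives run. All 20 kept their direction in each, which adds little, since each already had 6 of 6 pairs alike.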

How the data were processed

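Total RNA of roots was labelled with biotin and hybridised to Affymetrix ATH1 arrays. Normalisation with the probe-level model of AffylmGUI is stated in the study's methods, but the deposited intensity values are linear and were scaled by the authors to a common trimmed mean (500.04 to 500.05 on each of the 12 arrays), and the program behind them is not given in the sources used here. The number of arrays limits the precision. The median intensity per array ranged from 188.5 to 202.6 at 6 h and from 187.1 to 199.2 at 0 h. Between 20.1% and 24.6% of probe sets were under an intensity of 32.

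Of 22810 probe sets, 64 were controls and were not tested. Linear models of log2(intensity + 1) were computed with limma 3.58.1 under R 4.3.3 (lmFit and eBayes, 7 residual and 1.66 prior degrees of freedom) with time, medium and replicate number as factors. A further fit gave the change in each medium and their difference. P-values were adjusted by Benjamini-Hochberg over 22746 probe sets. Same-numbered arrays of different groups had deviations from their group means that correlated by 0.1103 to 0.4307 (18 pairs), and arrays of different number by -0.2717 to 0.1166 (36 pairs). Number 1 stood apart, with 0.3325 to 0.4307 among its own arrays. Numbers 2 and 3 were less clearly separate. Correlations between them reached 0.1166, and the lowest within number 3 was 0.1103. The numbers, given in the labels, were taken to mark the 3 experiments, with less ground for numbers 2 and 3. Calculations on tables used Python 3.11.15.

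One gene was assigned to 13513 probe sets by the annotation of the array and to 37 by tables of the study, 503 had several genes and were not named, and 9196 were not named in all. Symbols and gene order came from the TAIR10.1 annotation, of which no coordinates were used. Named genes were taken first from named probe sets common to both media and above the median intensity. Of these, up to 15 of the largest change and up to 3 of smallest p were taken in each direction. Only 2 higher ones were available. Also taken were up to 5 called members of each of 24 gene lists and the clock genes. The 3 of smallest p for the difference between media above the median intensity completed them. The comparison, the members and the lists were chosen with earlier results of these data known. The fits were tested on simulated data. Promoter sequences were not used here.

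Alternatives were no replicate block, quantile normalisation, centring of each array on its median, pseudocounts of 16 and 64, a minimum mean intensity of 64, all 22 arrays in one model, eBayes with trend and robust options, medium and replicate as 6 pairs, a threshold of 2-fold, the criterion of the study, and each array left out in turn.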

Additional observations from a re-analysis of the deposited data

How the results depend on the processing

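The direction of the change was kept by each of the 20 named genes called, in all 420 comparisons with an alternative. Each had 6 of 6 pairs alike from the start, so this adds little. In these comparisons 147 calls were lost, 122 of them in the 240 comparisons with 1 array left out, with adjusted p up to 0.496. With medium and replicate as 6 pairs (replicate block) 18 of the 20 calls were lost. GI passed with a pseudocount of 64, with the filter on dim probe sets and with the trend and robust options, with adjusted p of 0.0362, 0.0409 and 0.0195. The difference between media had 0 calls under each alternative run.

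Numbers of calls depended strongly on the setting, beside 18 higher and 111 lower called and 15 higher and 107 lower common to both media. In that order they were 59, 211, 44 and 181 with a pseudocount of 16; 167, 357, 40 and 205 with a pseudocount of 64; 159, 346, 69 and 238 with a minimum mean intensity of 64; 73, 205, 45 and 177 with all 22 arrays in one model; and 167, 397, 70 and 245 with the trend and robust options. Of the 111 lower calls, 99 to 111 were among those of these settings. With no replicate block the numbers were 8, 80, 7 and 78, and with 6 pairs (replicate block) they were 4, 26, 4 and 26. Quantile normalisation gave 9 higher common to both media and a threshold of 2-fold gave 8. The criterion of the study gave 662 higher and 628 lower over both media. The touch, wound and early stress list had 4 members called, beside 2, with a pseudocount of 64, the minimum intensity, all 22 arrays, or the trend and robust options, and 1 with 6 pairs (replicate block). The cause of these differences was not tested.

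With 1 array left out, the numbers called ranged from 1 to 65 higher and 21 to 165 lower. Those common to both media ranged from 1 to 61 higher and 21 to 158 lower. The touch, wound and early stress list had 1 to 3 called members. The lower count was 21, 28 and 29 without Fe-deficient replicates 1 and 2 of 6 h and 1 of 0 h, 31 and 62 without Fe-deficient replicates 2 and 3 of 0 h, 32 and 40 without Fe-sufficient replicates 1 and 2 of 6 h, and 32 and 61 without Fe-sufficient replicates 1 and 2 of 0 h. The median log2 change of the touch list stayed between -1.77 and -1.39, and that of the auxin list between -0.05 and 0.25. The deposited values carry no detection calls, so that dim probe sets could not be told from background.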

Other observations

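Families were looked through after results were known, and are given as values. The 8 named calmodulin-like genes had a median log2 change of -0.75 at 6 h over 0 h (-0.76 after quantile normalisation and after centring of the arrays, with 0.03, 0.01 and 0.02 for all probe sets under the same settings). CML39 was called and 4 were lower in 6 of 6 pairs, where 0.488% of all probe sets were called lower and 3.86% were lower in 6 of 6 pairs. Of these, CML37, CML38 and CML39 were already counted in the touch, wound and early stress list. CML23 had a median of 165 at 6 h, against 352 at 0 h, without overlap (log2 change -1.14, adjusted p = 0.174), whereas CML43 and CML30 had log2 changes of -0.05 and 0.03. Of 19 expansins and expansin-like genes, EXLA3 and EXLA1 were called lower and EXPB1 higher. Of 22 beta-glucosidase genes, BGLU32 was called lower, and BGLU44 had a median of 302 at 6 h, against 168 at 0 h (log2 change 0.81, adjusted p = 0.15). No member was called among 7 WRKY, 29 cytochrome P450 and 51 UDP-glycosyltransferase genes, whose median log2 changes were -0.06, 0.07 and 0.04. Over all probe sets 0.488% were called lower and 0.0791% higher, so 0 calls say little here. The 36 plastid-encoded genes of photosystems, cytochrome complex and NDH complex had a median of 0.33 (0.31 after quantile normalisation and 0.32 after centring), 0.17 in Fe-deficient and 0.52 in Fe-sufficient roots, and 0 were called.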
